A study of Mus musculus with 6 samples.

Results

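Integrins and the proteins that assemble on their tails at focal adhesions are described here at the transcript level in cultured mouse bone marrow mesenchymal stem cells (MSCs), stromal cells that can form bone, cartilage and fat. The 36 genes were taken by symbol from the gene column of the expression tables. They comprise 18 integrin subunits and 18 focal adhesion adaptors and kinases, of 15063 genes listed in all. All 36 were listed, and 32 of them (14 integrin subunits and all 18 adaptors) entered the test, which asked for 3 or more libraries with an RPKM of 1 or higher. RPKM scales reads to gene length and library size, so levels can be set side by side between genes.

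The study compared MSCs of Mapk7 conditional knockout (CKO) mice with MSCs of wild-type (WT) mice, at an age of 3 weeks, with 3 libraries per genotype. Mapk7 encodes ERK5, a MAP kinase, and the series title links it to the balance of bone and fat through Lrp6 and β-catenin. The CKO libraries 1 to 3 and WT libraries 1 and 3 were of passage 5, and WT library 2 was of passage 7. The promoter that drove Cre, and the cells in which it was active, were not stated in the labels.

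Integrins are dimers of an α and a β chain that bind the extracellular matrix outside the cell and, through the β tail, the actin cytoskeleton inside it. The α chain largely sets the ligand: α1, α2, α10 and α11 form collagen receptors with β1, α3, α6 and α7 form laminin receptors, and α5, α8 and αv bind the RGD tripeptide of fibronectin and related proteins. Talins and kindlins bind the β tail and switch integrins on, vinculin and zyxin link the site to actin, and FAK, SRC, paxillin and p130Cas carry the signal. Bone marrow stromal cells use these receptors to attach to collagen and fibronectin.

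The promoter windows of the integrin genes whose CKO and WT values did not overlap are shown first, because they are the integrin genes on which the comparison turns. Each window holds the 250 bases before the annotated start site, on the gene's strand, from RefSeq (GRCm38.p6, a later build than that of the expression files). The capitals mark matches, on either strand, to CACCC (the core of Krüppel-like factor sites), CATTCC (TEAD sites), TGANTCA (AP-1 sites), the CArG box (SRF sites) or the MEF2 box. Krüppel-like factors and MEF2 are known to act downstream of ERK5, and SRF, TEAD and AP-1 factors to act on adhesion and actin genes.
Itga5 (chr15:103366792-103367041, minus strand): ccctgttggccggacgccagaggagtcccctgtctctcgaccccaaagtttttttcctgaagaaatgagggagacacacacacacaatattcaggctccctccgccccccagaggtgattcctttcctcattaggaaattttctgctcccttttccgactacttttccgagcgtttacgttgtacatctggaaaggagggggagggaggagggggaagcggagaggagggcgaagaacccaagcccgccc
Itgb1 (chr8:128685404-128685653, plus strand): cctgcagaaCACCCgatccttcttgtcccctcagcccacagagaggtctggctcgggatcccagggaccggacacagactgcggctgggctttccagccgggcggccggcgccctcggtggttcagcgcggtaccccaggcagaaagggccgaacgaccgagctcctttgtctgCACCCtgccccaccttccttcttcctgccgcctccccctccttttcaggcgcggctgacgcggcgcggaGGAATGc
Itga1 (chr13:115101965-115102214, minus strand): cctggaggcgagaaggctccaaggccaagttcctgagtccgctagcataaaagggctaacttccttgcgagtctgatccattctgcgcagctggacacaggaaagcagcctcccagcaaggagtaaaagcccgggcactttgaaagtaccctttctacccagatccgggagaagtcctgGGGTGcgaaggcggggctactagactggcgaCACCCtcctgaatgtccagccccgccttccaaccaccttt
Itga10 (chr3:96645334-96645583, plus strand): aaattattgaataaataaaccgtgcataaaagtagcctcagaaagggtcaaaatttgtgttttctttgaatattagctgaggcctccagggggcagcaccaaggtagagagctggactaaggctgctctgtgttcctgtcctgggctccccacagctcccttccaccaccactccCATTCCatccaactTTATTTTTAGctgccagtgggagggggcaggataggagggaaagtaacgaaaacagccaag

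The window of Itga5 held none of these letters on either strand. That of Itgb1 held CACCC at 2 places and CATTCC at 1, that of Itga1 held CACCC at 2 places, and that of Itga10 held CATTCC at 1 place and a MEF2 box at 1. Of the 36 genes, 27 had a window in the table, with 32 windows in all. CACCC was found in 62.5% of these 32 windows and in 52.0% of all 32851 windows of that length. The MEF2 box was found in 9.38% and 2.92%, CATTCC in 9.38% and 12.6%, the CArG box in 6.25% and 1.47%, and TGANTCA in 3.12% and 6.75%. The CArG boxes lay at Fermt2 and Vcl, and the MEF2 boxes at Itga10, Bcar1 and Lims1. The median GC content of the 32 windows was 64.8%, against 52.4% for all windows, so their base composition differed too. These are matches of letters in short windows and carry no measurement of binding.

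Facts on the libraries that bear on what follows are these. Reads recovered from the RPKM values came to 17751778 to 19345817 per CKO library and 17351907 to 20689481 per WT library, and the tested genes of this set had 23 to 48318 reads each per library. The recovered reads set the counting error only. WT library 2 stood apart: its Pearson correlation with other libraries across tested genes was 0.795 to 0.920, while CKO library 1 and WT library 1 were the closest pair (0.972). The descriptions of WT libraries 1 and 2 carry the same number, without saying that it marks an animal. But Ddx3y, a Y-linked gene, was at 0.0357 RPKM in WT library 1 and 19.1 RPKM in WT library 2, and merging the pair is given only as an alternative. Ddx3y was at 11.8 RPKM in WT library 3 and at 15.3, 6.46 and 16.0 RPKM in the CKO libraries, so WT library 1 alone was near 0. Whether this bears on the levels of other genes was not tested. Mapk7 itself was at 5.59, 3.84 and 5.45 RPKM in the CKO libraries, against 7.12, 6.76 and 9.07 RPKM in the WT libraries, and its log2 difference of −0.54 did not pass the test described next (limma adjusted p = 0.505). Every library held stromal transcripts, with Col1a1 at 1126 to 2959 RPKM in CKO and 2043 to 2635 RPKM in WT. Every library also held macrophage transcripts, with Lyz2 at 321 to 2948 RPKM in CKO and 686 to 1590 RPKM in WT, so levels are those of mixed cultures, and more cells of a type cannot be told apart from more RNA per cell.

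Among the integrins, no gene passed the test, and CKO and WT values did not overlap for 4. The gene of the fibronectin receptor chain, Itga5, and that of the shared β chain, Itgb1, had CKO values that all lay above the WT values, and the genes of collagen receptor chains Itga1 and Itga10 had CKO values that all lay below them. None of the 32 genes passed the test across all genes (limma on log2(RPKM + 1), Benjamini-Hochberg adjusted p of at least 0.258), where 0.00902% of 11085 genes passed. At an unadjusted p under 0.05, 6 of the 32 genes (18.8%) differed, 3 higher and 3 lower in CKO, against 9.74% of all genes tested (3.36% higher and 6.39% lower). The CKO and WT values did not overlap for 10 of the 32 genes (31.2%), 6 with CKO above WT and 4 with CKO below WT, against 16.7% of all genes tested (7.51% above and 9.18% below). With 3 libraries against 3, an exact two-sided permutation test of 1 gene cannot go below p = 0.1, which is its value for each of these 10. The labels number the libraries but do not say that each number is a separate animal or culture, and the spread behind each p-value is that between libraries, which may be technical in part.

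Itga5, the α chain of the main fibronectin receptor, was at 159.8, 246 and 197 RPKM in the CKO libraries, against 104, 19.0 and 58.6 RPKM in the WT libraries. All 3 CKO libraries were above all WT libraries, and WT library 1 lay nearest to them. The log2 difference was 1.99 (SE 0.58, limma adjusted p = 0.334, higher in 3 of 3 CKO libraries). Without WT library 2, where Itga5 was lowest, it was 1.33 (limma adjusted p = 0.678).

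Itgb1, the β chain shared by most of these receptors, was the most abundant gene of the set in every library. Its level was 403, 596 and 559 RPKM in CKO, against 361, 343 and 380.4 RPKM in WT. The groups did not overlap, but CKO library 1 lay close to WT library 3, and after quantile normalization the groups overlapped. The log2 difference was 0.50 (SE 0.30, limma adjusted p = 0.607).

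Of the 4 collagen-binding chains, Itga1 and Itga10 had groups without overlap, while Itga11 and Itga2 overlapped. Itga1, whose product pairs with β1 to bind collagen, was at 8.43, 3.72 and 7.22 RPKM in the CKO libraries, against 22.2, 16.6 and 21.6 RPKM in the WT libraries. The lowest WT library was well above the highest CKO library. Its log2 difference of −1.55 (SE 0.30) had the lowest p among the 32 genes (limma adjusted p = 0.258), and without WT library 2 it was −1.68.

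Itga10, a collagen receptor chain known from cartilage, was at 0.681, 0.902 and 1.24 RPKM in CKO, against 1.57, 17.8 and 3.09 RPKM in WT. The groups did not overlap, and WT library 2 stood far above the other WT libraries. Its log2 difference was −1.59 (SE 0.69, limma adjusted p = 0.523) and −0.75 without WT library 2. Itga10 passed the filter on low values through the WT libraries and CKO library 3, where it was higher, so it could enter the counts over tested genes more readily with a difference of this direction. Without it, 9 of 31 genes of the set, and 3 of 13 integrins, had groups without overlap.

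Itga11, the collagen receptor chain of fibroblast-like stroma and the most abundant of the 4 here, was at 82.7, 43.2 and 13.3 RPKM in CKO, against 76.3, 95.9 and 68.7 RPKM in WT. CKO library 1 was within the WT range, CKO libraries 2 and 3 were below it, and the difference did not pass (log2 −1.10, SE 0.60, limma adjusted p = 0.593). Without CKO library 3 it was −0.40, and without CKO library 1 it was −1.68 (limma adjusted p = 0.349). In the fit without CKO library 1 the CKO values of Itga11 lay below the WT values, where 27.2% of all genes tested did not overlap. Itga2, the fourth collagen-binding chain, did not pass the filter, at 0.149, 0.153 and 0.674 RPKM in CKO and 0.478, 2.28 and 3.25 RPKM in WT, with overlap.

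**Figure D1:**
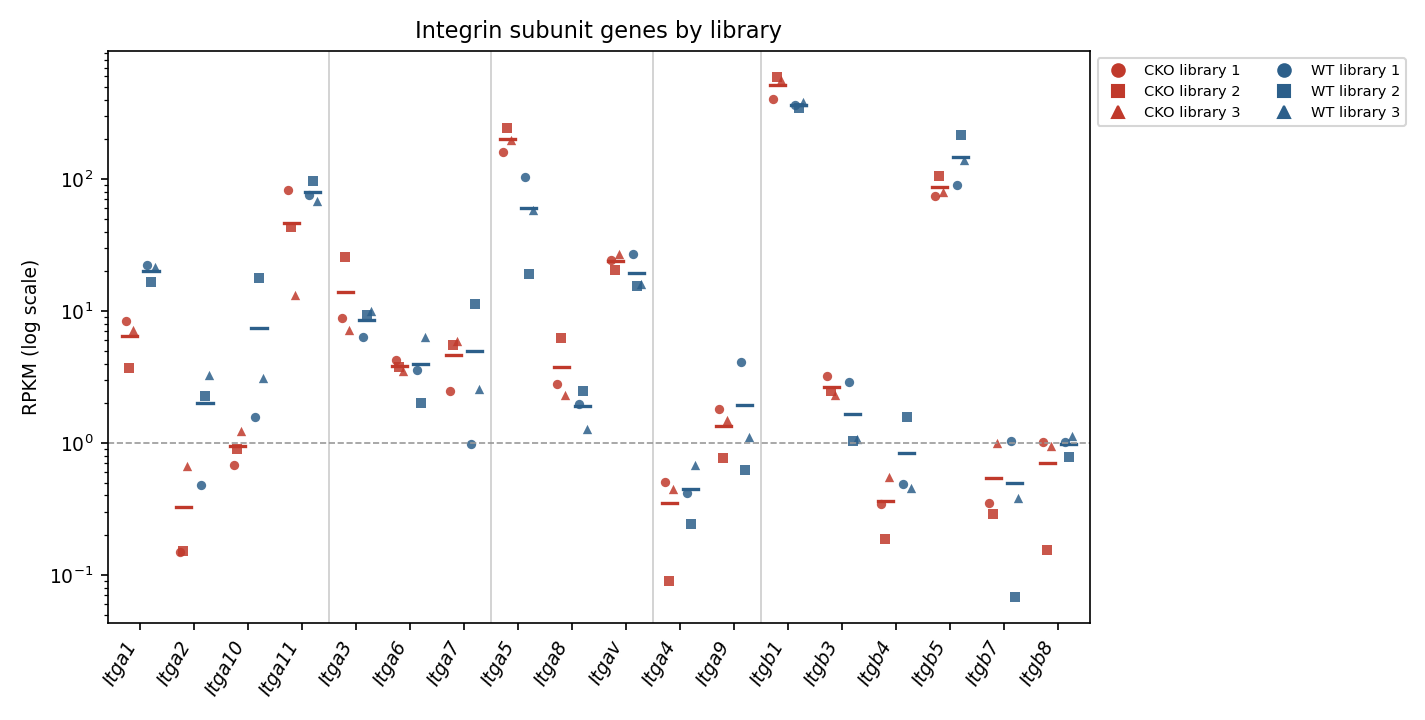
RPKM of the 18 integrin subunit genes (log scale) in each CKO library (red, left of each pair) and each WT library (blue), with symbols for library number, short lines at the mean of 3 libraries, vertical lines between collagen-binding, laminin-binding, RGD-binding and other α chains and β chains, and a dashed line at an RPKM of 1. Itga5 and Itgb1 sit higher in all CKO libraries, Itga1 and Itga10 lower, and the remaining pairs overlap.

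The balance among α chains can be read as each chain's share of the summed RPKM of the 12 α genes, since RPKM is per length. Itga5 made up 53.8%, 69.0% and 73.7% of that sum in the CKO libraries, against 41.8%, 9.82% and 30.3% in the WT libraries. The 4 collagen-binding chains made up 31.0%, 13.5% and 8.39% in the CKO libraries, against 40.3%, 68.7% and 50% in the WT libraries. For each share all CKO libraries lay on 1 side of all WT libraries, with CKO library 1 and WT library 1 nearest to each other. These shares rest on genes already described and were given no test. In CKO the order of mean levels was Itga5 (201 RPKM), Itga11 (46.4), Itgav (23.9) and Itga3 (13.9), and in WT it was Itga11 (80.3 RPKM), Itga5 (60.6), Itga1 (20.1) and Itgav (19.5). Within WT the ranges of Itga11 and Itga5 overlapped, as did those of Itga1 and Itgav, and those of Itga11, Itgav and Itga3 overlapped within CKO.

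**Figure D2:**
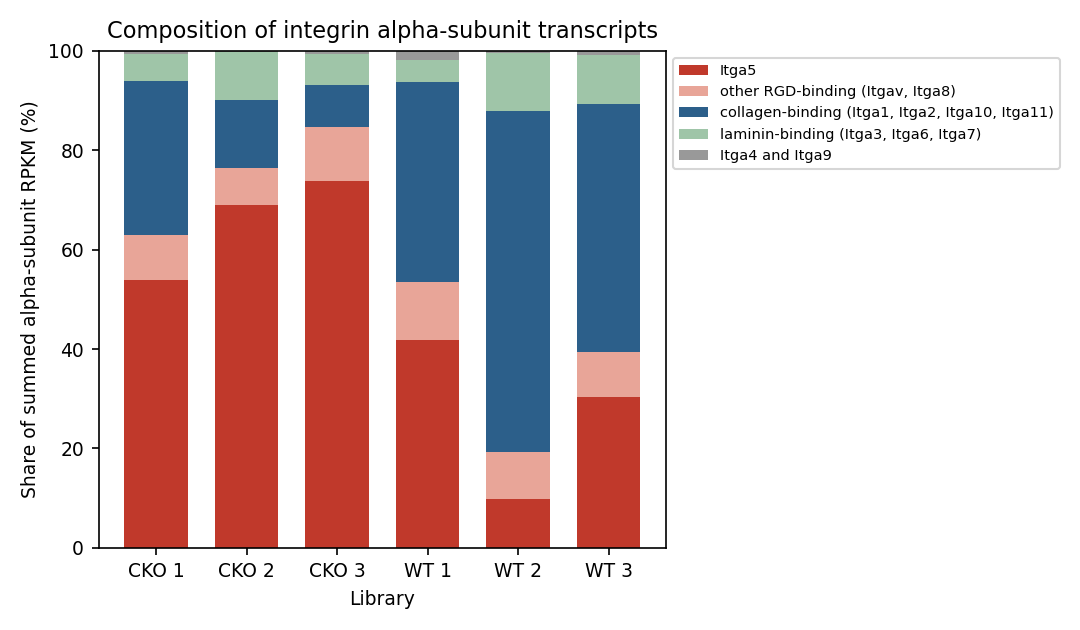
Share of the summed RPKM of the 12 integrin α genes (percent, stacked to 100) in each library, CKO 1 to 3 left of WT 1 to 3. Itga5 takes 53.8% to 73.7% of each CKO bar and 9.82% to 41.8% of each WT bar, and the collagen-binding chains take 8.39% to 31.0% of each CKO bar and 40.3% to 68.7% of each WT bar.

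The other RGD-binding chains overlapped between genotypes. Itgav, which forms vitronectin and fibronectin receptors with several β chains, averaged 23.9 ± 3.19 RPKM in CKO and 19.5 ± 6.52 RPKM in WT (SD, n = 3 each). Itga8, the nephronectin receptor chain of mesenchymal cells, averaged 3.78 ± 2.14 RPKM in CKO and 1.91 ± 0.608 RPKM in WT. Without WT library 2 its CKO values lay above both remaining WT values, as did those of 8.55% of all genes tested.

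The laminin-binding chains were low and overlapped. Itga3, the most abundant of them, was at 8.90, 25.6 and 7.12 RPKM in CKO, against 6.38, 9.28 and 10.02 RPKM in WT. Only CKO library 2 was above the WT range, and the log2 difference of 0.45 (SE 0.45) became −0.07 without that library. Itga6 averaged 3.83 ± 0.357 RPKM in CKO and 3.96 ± 2.17 RPKM in WT, and Itga7, the laminin receptor chain of muscle, averaged 4.63 ± 1.88 RPKM in CKO and 4.95 ± 5.55 RPKM in WT (SD, n = 3 each). The WT mean of Itga7 rested on WT library 2, at 11.3 RPKM against 0.975 and 2.58 RPKM in the other WT libraries, and its log2 difference of 0.28 was 1.02 without that library.

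Itga9, a receptor chain for tenascin C and other ligands, was at 1.80, 0.765 and 1.49 RPKM in CKO, against 4.14, 0.620 and 1.11 RPKM in WT. The groups overlapped, and its log2 difference of −0.17 turned to 0.32 without WT library 1 and to 0.02 without CKO library 2. Itga4, the chain that binds VCAM1, stayed at or under 0.676 RPKM in every library and did not pass the filter.

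Among the remaining β chains, Itgb5, which pairs with αv to bind vitronectin, was second to Itgb1. It was at 74.4, 105 and 80.04 RPKM in CKO, against 90.3, 214 and 139 RPKM in WT. The groups overlapped through CKO library 2 and WT library 1 (log2 difference −0.70, SE 0.36, limma adjusted p = 0.584). They did not overlap after quantile normalization, with WT libraries 1 and 2 merged, without CKO library 2 or without WT library 1. Itgb5 was then lower in CKO, and 17.9%, 30.2%, 33.8% and 32.8% of all genes tested did not overlap, in that order. With the merged libraries or without WT library 1 the unadjusted limma p of Itgb5 was under 0.05. So was that of 1197 of 10890 and 1451 of 10824 genes tested. Itgb1 exceeded Itgb5 by 5.42, 5.67 and 6.98 times in the CKO libraries, against 4.0, 1.6 and 2.74 times in the WT libraries, so that this ratio was higher in each CKO library.

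Itgb3, a β chain of osteoclasts and platelets that can pair with αv, averaged 2.67 ± 0.50 RPKM in CKO and 1.66 ± 1.06 RPKM in WT, with overlap (SD, n = 3 each). Of 7 osteoclast markers listed, 3 (Oscar, Dcstamp and Ocstamp) stayed under 1 RPKM in all libraries and 2 were tested. Ctsk, the cathepsin K gene, was at 41.9 to 57.2 RPKM in CKO and 61.5 to 94.1 RPKM in WT, and Acp5 and Mmp9 were highest in CKO library 3, at 10.5 and 21.1 RPKM. The mean log2(RPKM + 1) of the list was 0.983, 1.05 and 2.46 in CKO and 1.34, 1.52 and 1.37 in WT. The megakaryocyte and platelet list had a mean of 2.31, 1.83 and 3.56 in CKO and 2.87, 0.758 and 2.15 in WT, with Pf4, the platelet factor 4 gene, at 18.05, 12.8 and 210.1 RPKM in CKO and 44.2, 0.0822 and 12.7 RPKM in WT. The part of these cells in the level of Itgb3 was not tested. Without WT library 1, Itgb3 did not overlap (CKO above WT, where 32.8% of all genes tested did not overlap). Its unadjusted limma p was then under 0.05, as was that of 1451 of 10824 genes tested. Itgb8, a partner of αv in TGF-β activation, averaged 0.703 ± 0.477 RPKM in CKO and 0.978 ± 0.170 RPKM in WT. The epithelial chain Itgb4 and the leukocyte chain Itgb7 did not pass the filter, with highest values of 0.557 and 0.997 RPKM in CKO and 1.56 and 1.04 RPKM in WT.

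Over the 14 tested integrin genes, 8 log2 differences lay above and 6 below 0. Their median was 0.17, against 0.03 over all genes tested, and it turned to −0.04 without WT library 2. The CKO and WT values of 4 of the 14 (28.6%) did not overlap, against 16.7% of all genes tested, and of 7 of 13 without WT library 1, where 32.8% of all genes tested did not. By ligand, the tested collagen-binding chains Itga1, Itga11 and Itga10 lay below 0, the last with the limit of the filter given above, where 46.3% of all genes tested did. The 3 RGD-binding chains lay above 0 (median 0.65, and 0.79 without WT library 2), with overlap for Itga8 and Itgav. No test of these small groups was made.

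On the intracellular side of the adhesion, CKO values lay above all WT values for Src, Ptk2, Bcar1 and Fermt2, and below them for Tns2 and Tns3. The genes of talin, vinculin, zyxin and the ILK complex overlapped between genotypes with all libraries. None of the 18 adaptor and kinase genes passed the test (lowest limma adjusted p = 0.277), against 0.00902% of all genes. CKO and WT values did not overlap for 6 of the 18 (33.3%), 4 with CKO above WT and 2 with CKO below WT, against 16.7% of all genes tested (7.51% above and 9.18% below). Without WT library 3 this count was 11 of 18, where 22.3% of all genes tested did not overlap. The genes added were Tln1 and Tln2, with CKO below WT, and Vcl, Pxn and Ilk, with CKO above WT.

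Src, the founding tyrosine kinase of its family and a partner of FAK at adhesions, was at 24.1, 31.3 and 24.3 RPKM in the CKO libraries, against 14.7, 14.6 and 12 RPKM in the WT libraries. The groups were well separated and the spread within each was small. The log2 difference was 0.90 (SE 0.21, limma adjusted p = 0.277, higher in 3 of 3 CKO libraries), and it stayed between 0.78 and 0.96 under the 15 alternatives tried.

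Ptk2, the gene of FAK, was at 15.1, 21.3 and 17.5 RPKM in CKO, against 14.7, 13.1 and 12.5 RPKM in WT. CKO library 1 lay just above WT library 1, and the log2 difference was 0.39 (SE 0.21, limma adjusted p = 0.590). Bcar1, the gene of the scaffold p130Cas, which FAK and SRC phosphorylate, was at 35.4, 44.0 and 32.4 RPKM in CKO, against 32.1, 19.8 and 29.4 RPKM in WT. The separation of Bcar1 was narrow, between CKO library 3 and WT library 1 (log2 difference 0.46, SE 0.25, limma adjusted p = 0.593), and the difference was 0.26 without WT library 2.

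The other scaffolds overlapped. Pxn, the paxillin gene, averaged 18.6 ± 2.35 RPKM in CKO and 16.2 ± 3.36 RPKM in WT. Nedd9, a relative of p130Cas, averaged 18.3 ± 7.19 RPKM in CKO and 27.3 ± 10.7 RPKM in WT (SD, n = 3 each). Of the 5 kinases and scaffolds, Nedd9 was the only one with a log2 difference below 0 (−0.55, SE 0.38).

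Fermt2, the gene of kindlin-2, which binds the β tail next to talin, was at 80.9, 98.1 and 94.9 RPKM in CKO, against 70.5, 47.9 and 64.0 RPKM in WT. All CKO libraries were above all WT libraries, with CKO library 1 and WT library 1 the nearest. The log2 difference was 0.59 (SE 0.25, limma adjusted p = 0.50), and 0.43 without WT library 2.

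Talin genes did not share that direction. Tln1, the talin of most cells, averaged 61.05 ± 8.85 RPKM in CKO and 68.1 ± 6.54 RPKM in WT, and Tln2 averaged 8.65 ± 5.72 RPKM in CKO and 14.7 ± 5.51 RPKM in WT (SD, n = 3 each). Vcl, the vinculin gene, averaged 161 ± 23.6 RPKM in CKO and 127 ± 55.0 RPKM in WT, with its lowest value, 68.5 RPKM, in WT library 2. Its log2 difference of 0.44 (SE 0.38) was 0.05 without that library.

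Zyx, which encodes zyxin, a LIM protein of tensioned actin fibres, was the most abundant adaptor. It was at 209, 324 and 160.0 RPKM in CKO, against 149.9, 206 and 262 RPKM in WT, with full overlap. Its log2 difference of 0.14 (SE 0.37) turned to −0.13 without CKO library 2 and to −0.07 without WT library 1.

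The ILK, PINCH and parvin proteins form a complex that links β tails to actin. Ilk was at 151, 309.9 and 147 RPKM in CKO, against 133, 120.5 and 152 RPKM in WT. CKO library 2 stood far above the rest, CKO libraries 1 and 3 lay within the WT range, and the log2 difference of 0.50 (SE 0.35) was 0.15 without CKO library 2. After quantile normalization the Ilk values of CKO and WT did not overlap, nor did those of 17.9% of all genes tested. Parva averaged 63.4 ± 10.2 RPKM in CKO and 62.2 ± 2.16 RPKM in WT, and Parvb averaged 4.26 ± 2.28 RPKM in CKO and 2.27 ± 0.986 RPKM in WT. The PINCH genes were likewise close: Lims1 averaged 20.4 ± 4.89 RPKM in CKO and 18.3 ± 6.79 RPKM in WT, and Lims2 averaged 9.36 ± 3.60 RPKM in CKO and 9.92 ± 2.52 RPKM in WT (SD, n = 3 each).

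The tensins, which bind β tails and actin at the long fibrillar adhesions beneath the cell body, included the adaptors with the lowest log2 differences. Tns3 was at 13.8, 21.7 and 15.0 RPKM in the CKO libraries, against 27.2, 107 and 38.7 RPKM in the WT libraries. The groups did not overlap, and WT library 2 was the highest by far. The log2 difference was −1.50 (SE 0.49, limma adjusted p = 0.378), and −0.94 without WT library 2.

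Tns2 was at 9.57, 10.1 and 11.3 RPKM in CKO, against 16.9, 32.2 and 21.03 RPKM in WT. The CKO values lay close together and below every WT value (log2 difference −1.06, SE 0.26, limma adjusted p = 0.285), and the difference was −0.81 without WT library 2. Tns1 did not follow them. Its values were 12.1, 11.7 and 14 RPKM in CKO and 9.83, 37.5 and 6.91 RPKM in WT. Without WT library 2 the CKO values lay above those of both remaining WT libraries, as did those of 8.55% of all genes tested. The log2 difference of Tns1 was then 0.55, against −0.13 with all libraries.

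**Figure D3:**
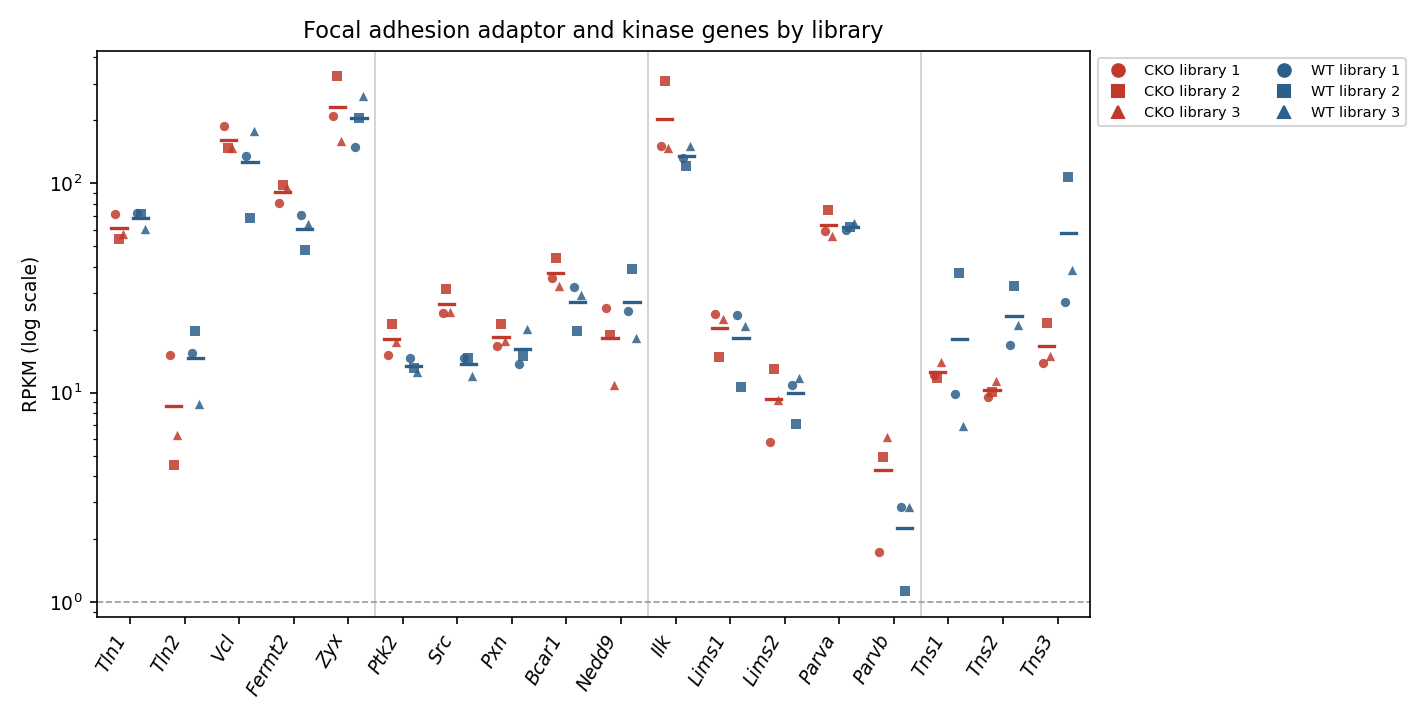
RPKM of the 18 focal adhesion adaptor and kinase genes (log scale) in each CKO library (red, left of each pair) and each WT library (blue), with symbols for library number, short lines at the mean of 3 libraries, vertical lines between role groups and a dashed line at an RPKM of 1. Src, Ptk2, Bcar1 and Fermt2 sit higher in all CKO libraries, Tns2 and Tns3 lower, and WT library 2 is the highest library for Tns1, Tns2 and Tns3.

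Over the 18 adaptors the median log2 difference was 0.16, with 11 above and 7 below 0. This median was 0.01 without CKO library 2 and 0.32 without WT library 3. At passage 5 alone, that is without WT library 2, Itga1, Itga10, Itga5, Src, Tns2 and Tns3 had an unadjusted limma p under 0.05, as did 5.88% of all genes tested in that fit, and the lowest adjusted p among the 32 genes was 0.546.

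**Figure D4:**
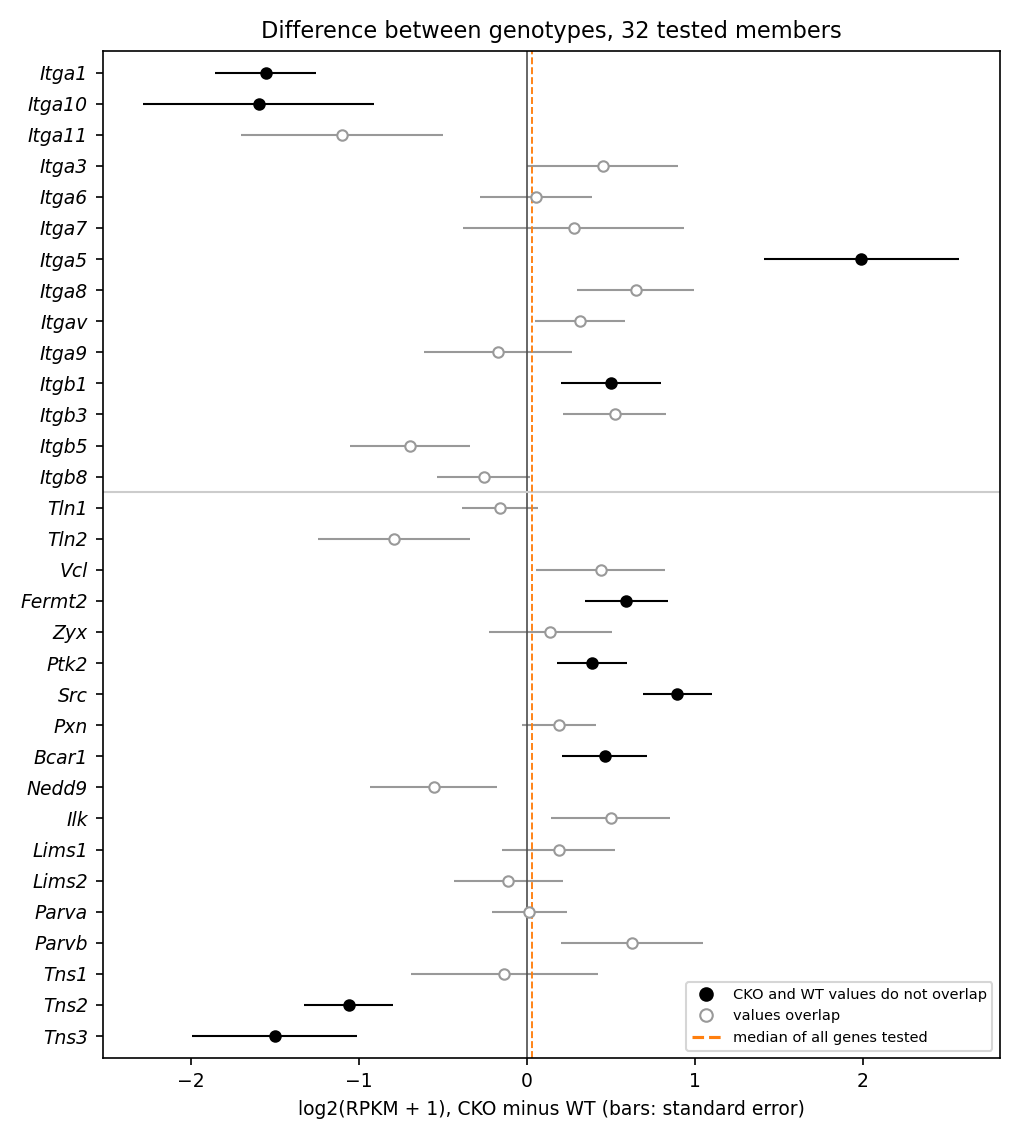
Difference in log2(RPKM + 1) between CKO and WT libraries (points, CKO minus WT) with its standard error (bars) for the 32 tested genes, integrin subunits above the grey line and adaptors below it. Filled points mark the 10 genes whose CKO and WT values do not overlap, and the dashed line marks the median of all genes tested, 0.03.

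Markers of contractile cells stood beside these genes as follows. Of the 6 smooth muscle markers, which include actin-binding proteins of stress fibres, 5 lay above 0 (46.3% of all genes tested lay below). None passed the test (lowest limma adjusted p = 0.258). For 4 (Myh11, Des, Cnn1 and Tagln) CKO values lay above WT values without overlap (66.7%, against 7.51% of all genes tested), while Acta2 and Smtn overlapped. Des and Myh11 reached an RPKM of 1 in every CKO library but not in every WT library. They could therefore pass the filter, and enter this count, more readily with a difference of this direction. Tagln, the transgelin gene, was at 1138, 3364 and 1617 RPKM in CKO, against 850.4, 153 and 871 RPKM in WT. Without WT library 2, the same 4 lay above WT without overlap (8.55% of all genes tested), and 5 lay above and 1 below 0 (53.1% of all genes tested lay below). The summed RPKM of the list was 3295, 8371 and 3935 in CKO and 2761, 702 and 2756 in WT. It was lowest in WT library 2, as were Itga5, Vcl and Fermt2 among others of the set, while Itgb5, Tns1, Tns2 and Tns3 were highest there. The part of contractile cells in those levels was not tested. The 10 cell cycle genes also had their lowest mean log2(RPKM + 1) in WT library 2 (1.46, against 3.86 to 4.94 in CKO and 4.13 and 4.86 in the other WT libraries). All 10 lay above 0, with overlap (46.3% of all genes tested lay below 0). Without WT library 2, 5 lay above and 5 below 0 (53.1% of all genes tested lay below).

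Most markers of bone marrow stroma lay lower in CKO. Of the 9 tested, 7 log2 differences lay below 0 (46.3% of all genes tested did) and 2 above, those of Thy1 (0.40) and Nt5e (0.50), with overlap. The mean log2(RPKM + 1) of the 10 markers was 5.80, 5.40 and 5.53 in CKO, against 6.19, 6.26 and 6.10 in WT. Of 9 tested, none passed the test (lowest limma adjusted p = 0.350). For Pdgfra, Pdgfrb, Cxcl12 and Ly6a (44.4%) all CKO values lay below all WT values, against 9.18% of all genes tested. The same 4 did so without WT library 2, against 11.8% of all genes tested in that fit. Pdgfrb, a growth factor receptor gene of stromal cells, was at 48.5, 36.9 and 26.1 RPKM in CKO, against 85.8, 66.1 and 60.2 RPKM in WT. The part of stromal and dividing cells in the levels of the 36 genes was not tested.

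The 2 leukocyte integrins that were tested overlapped between genotypes. Of 8 such genes, these were Itgam and Itgb2, the chains of the macrophage receptor Mac-1, and neither passed. Itgax, which did not pass the filter, was at 0.110, 0.0119 and 0.104 RPKM in CKO, against 0.146, 2.98 and 0.918 RPKM in WT. Its CKO values lay below its WT values without overlap, at 1 to 267 reads per library. Itgam was at 5.63, 1.48 and 50.5 RPKM in CKO, against 6.56, 5.77 and 13.1 RPKM in WT, and Itgb2 was at 5.58, 3.07 and 28.2 RPKM in CKO, against 6.82, 13.7 and 23.3 RPKM in WT. The mean log2(RPKM + 1) of the 17 macrophage markers, which include these chains, was 3.87, 2.88 and 4.95 in CKO and 4.04, 3.03 and 5.24 in WT. All 16 tested markers overlapped between genotypes, with 6 log2 differences above and 10 below 0 (46.3% of all genes tested lay below). Without WT library 2, 1 lay above and 15 below 0 (53.1% of all genes tested lay below). In that fit Csf1r and C1qa, 2 of the 16, had CKO values below WT values without overlap (11.8% of all genes tested). The part of macrophages in the levels of the 36 genes was not tested. Endothelial markers were low, with all 7 under 1 RPKM in all libraries.

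Of 37 other focal adhesion and actin genes outside the 36, 35 were tested, 25 log2 differences lay above and 10 below 0 (46.3% of all genes tested lay below), none passed the test (lowest limma adjusted p = 0.138), and CKO and WT values did not overlap for 12 (34.3%, against 16.7% of all genes tested), 11 of them with CKO above WT (7.51% of all genes tested). Without WT library 2, 19 of the 35 lay above and 16 below 0 (53.1% of all genes tested lay below), and 11 lay higher without overlap (8.55% of all genes tested), an alternative chosen after seeing the data. The 11 included the Ena/VASP genes Enah, Vasp and Evl, whose products extend actin filaments at adhesions. Enah was at 29.0, 26.2 and 46.3 RPKM in CKO, against 12.2, 6.13 and 8.40 RPKM in WT. Tes, the gene of the LIM protein testin, averaged 82.0 ± 32.4 RPKM in CKO and 14 ± 13.0 RPKM in WT, and Lpp, a relative of zyxin, averaged 18.2 ± 6.34 RPKM in CKO and 8.31 ± 1.47 RPKM in WT. The 1 gene below was Sorbs2, an adaptor of the vinexin family, at 0.832, 0.388 and 1.45 RPKM in CKO, against 4.73, 8.46 and 8.23 RPKM in WT. Sorbs2 passed the filter through the WT libraries and CKO library 3, so the limit given for Itga10 holds for it too. Enah, Tes, Lpp and Sorbs2 were those with the lowest p of the list, while Vasp and Evl were chosen after their values were seen.

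Of 15 regulators of integrin activity, 14 were listed and 13 were tested, 4 lay above and 9 below 0 (46.3% of all genes tested lay below), none passed the test (lowest limma adjusted p = 0.419), and CKO values lay below WT values without overlap for 3 (23.1%, against 9.18% of all genes tested). Without WT library 2, 1 lay above and 12 below 0 (53.1% of all genes tested lay below), and Rap1b and Cav1 joined these 3 (11.8% of all genes tested). The 3 were Cd9, a tetraspanin gene, at 113 ± 60.9 RPKM in CKO and 235 ± 48.5 RPKM in WT, and the talin-binding genes Kank2, at 21.2 ± 2.15 RPKM in CKO and 32.7 ± 5.88 RPKM in WT, and Kank1, at 4.58 ± 0.694 RPKM in CKO and 16.9 ± 13.6 RPKM in WT (SD, n = 3 each). Cd151, a tetraspanin gene bound to laminin receptors and the remaining gene named by its p, averaged 68.5 ± 43.4 RPKM in CKO and 94.5 ± 21.0 RPKM in WT, with overlap.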

How the data were processed

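RNA-seq libraries from 3 CKO and 3 WT MSC samples were analysed. Per the labels, total RNA was used for stranded mRNA libraries. The authors deposited 1 RPKM value per gene and library. The file headers call it only expression, and the unit was found from the values: given a total for each library and a length for each gene, whole reads came out for 15057 of 15063 genes (99.96%), within 0.01 read or a relative error of 1e-07 for large counts. The submitters' processing notes name mm9 as the build, so no gene coordinates are given beside expression. For the aligner, counter and use of strand, the entry is "not given in the sources used here", so overlapping or antisense genes may share reads. The third WT library is numbered 3 in its description and 2 in its header.

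The 11085 genes that reached an RPKM of 1 in 3 or more of the 6 libraries were tested on log2(RPKM + 1), which understates the change of low genes, with limma 3.58.1 in R 4.3.3 (genotype only, intensity trend, robust moderation, two-sided, Benjamini-Hochberg over all tested genes, threshold 0.05). The fit was tested on simulated data. The genes, lists and tests were chosen with earlier results of these data known. Values in every library are given for genes of the set whose groups did not overlap and for the most abundant of each role group, and up to 4 genes per further list were named by lowest p. Further genes and values were chosen after they were seen. Group labels came from sample titles. Alternatives were another pseudocount, filters, scalings, limma without trend or robust moderation, merged WT libraries, a replicate block, voom on recovered reads and leaving out each library. Whether replicate numbers pair the libraries was not settled, and the main fit had no pairing.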

Additional observations from a re-analysis of the deposited data

How the results depend on the processing

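None of the 36 genes passed limma's adjusted threshold with all libraries or under any of 15 alternatives, in which 5 to 8 of them had an unadjusted p under 0.05. The count was 8 with WT libraries 1 and 2 merged and without WT library 1, where 1197 of 10890 and 1451 of 10824 genes tested had such a p. It was 5 with voom and without CKO library 2, CKO library 3 or WT library 3. There 1000 of 11085, 980 of 11005, 800 of 10893 and 665 of 10876 genes had such a p. Across all genes, the count of 1 became 0 with a pseudocount of 0.1, without a filter and with voom on recovered reads (1059, 1399 and 1000 genes at an unadjusted p under 0.05), 2 after median centring or quantile normalization, 4 with the filter at RPKM 5, 20 with WT libraries 1 and 2 merged, and 0 to 24 with 1 library left out: 24 without WT library 1, 17 without CKO library 1, 1 without CKO library 2, and 0 without CKO library 3, WT library 2 or WT library 3 (800, 642 and 665 genes at an unadjusted p under 0.05). The median log2 difference of the integrins, 0.17, was −0.03 without a filter, 0.30 with the filter at RPKM 5, 0.09 with the merged libraries and −0.04 to 0.30 with 1 library left out. That of the adaptors, 0.16, was 0.01 to 0.32 with 1 library left out. Integrins without overlap, 4, were 7 with the merged libraries and 4 to 7 with 1 library left out, and adaptors, 6, were 6 with the merged libraries and 6 to 11 with 1 left out. The share of all genes without overlap, 16.7%, was 30.2% with the merged libraries and 20.3% to 33.8% with 1 left out, so these counts grew beside a general rise. Of 223 values for 15 followed genes, 218 kept their direction. The others were Itga3 (−0.07), Itga9 (0.02) and Zyx (−0.13) without CKO library 2, and Itga9 (0.32) and Zyx (−0.07) without WT library 1. With 1 library left out these genes ranged from −0.07 to 0.78 (Itga3), −0.51 to 0.32 (Itga9) and −0.13 to 0.37 (Zyx). The cause was not tested. With the replicate block, 0 genes passed (1123 at an unadjusted p under 0.05). Deviations of libraries with the same number correlated at 0.198, 0.014 and −0.019, and those of libraries with different numbers at −0.23 to 0.206. As each deviation is taken from a mean of 3 libraries, these values cannot decide whether the numbers pair them. At low RPKM, depth limits precision: 3 reads on 1 kb are 0.145 to 0.173 RPKM.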

Other observations

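Of 26 genes of integrin ligands, 25 were listed and tested, 11 log2 differences lay above and 14 below 0, none passed limma's test (lowest adjusted p = 0.277), and CKO and WT values did not overlap for 7, 3 with CKO above WT and 4 with CKO below WT. The background share of tested genes without overlap was 16.7% (7.51% above and 9.18% below), and 46.3% of all genes tested lay below 0. Without WT library 2, 13 lay above and 12 below 0 (53.1% of all genes tested lay below). In that fit 3 genes lay above and 4 below without overlap, against 8.55% and 11.8% of all genes tested. Fn1, the fibronectin gene and ligand of the product pair of Itga5 and Itgb1, was at 2722, 1898 and 1521 RPKM in CKO, against 2028, 1833 and 2567 RPKM in WT, with overlap. Tnc, which encodes tenascin C, a ligand of the Itga9 product, was at 359.6, 321 and 362 RPKM in CKO, against 116, 227 and 70.9 RPKM in WT.

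Of 7 laminin chain genes, none passed the test, and Lama1, Lama2, Lama4 and Lamc1 overlapped between CKO and WT (limma adjusted p of 0.645 to 0.864). Lama5 was at 8.04, 7.31 and 8.10 RPKM in CKO, against 1.59, 5.05 and 2.37 RPKM in WT, and Lamb1 at 73.96, 61.97 and 213 RPKM in CKO, against 47.2, 28.6 and 28.5 RPKM in WT. Lamb2 was at 28.3, 19.4 and 29.3 RPKM in CKO, against 41.8, 56.3 and 47.8 RPKM in WT, and Nid2, a basement membrane gene, at 10.5, 4.02 and 9.61 RPKM in CKO, against 29.3, 17.9 and 33.5 RPKM in WT. Fn1 and Lamb1 were chosen after their values were seen.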
